A study of Mus musculus with 9 samples.

Results

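Rasd1 and 7 other genes tied to glucocorticoid signalling were followed in lung RNA from 9 mice in a model of acute lung injury (ALI). The 8 genes, Rasd1, Fkbp5, Tsc22d3, Zbtb16, Sgk1, Nr3c1, Hsd11b1 and Cdkn1a, were taken by symbol from the 52381 genes of the deposited table. All 9 mice received lipopolysaccharide (LPS), an outer membrane component of Gram-negative bacteria that sets off inflammation. The group called LPS-ALI holds 4 of these mice, and the group called TMAO holds 5 that were also given trimethylamine N-oxide, a metabolite formed from gut bacterial products. The sources used here give no strain, age, dose, route or time, and lungs without LPS were not analysed. Values are FPKM, fragment counts divided by gene length and by library size, so levels may be set side by side between genes. Rasd1 had been chosen by its FPKM values in these same groups, which differed, so its difference is given as a description with no test. The other 7 were chosen for their tie to the same hormone, with earlier results of these data known.

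Glucocorticoids bind a receptor in the cytoplasm, encoded by Nr3c1 and held ready by Hsp90 chaperones. The bound receptor moves to the nucleus, where it raises the transcription of target genes at palindromic DNA elements and dampens inflammatory factors such as AP-1 and NF-kappaB. Fkbp5, Tsc22d3, Zbtb16 and Sgk1 are widely used readouts of this response, and Rasd1 was found as a dexamethasone-induced Ras-like gene. In the lung the hormone restrains inflammation and promotes surfactant production and fluid clearance.

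The libraries are labelled as lung, while the extraction protocol in the labels speaks of platelets. All 10 alveolar type 2 cell markers were above 0 in every lung. The leading marker, the surfactant gene Sftpc, ranged from 709.70 to 9808.57 FPKM with LPS alone and from 3841.95 to 7333.49 FPKM with TMAO. The summed level of 9 platelet markers ranged from 32.1 to 77.8 FPKM with LPS alone and from 19.3 to 27.9 FPKM with TMAO. Sums of T and NK cell markers, all 9 in the table, ranged from 24.4 to 59.4 FPKM with LPS alone and from 9.59 to 18.8 FPKM with TMAO. Sums of 7 B cell markers ranged from 15.8 to 21.5 FPKM and from 5.14 to 11.8 FPKM. These 3 sums separated the groups without overlap, at a low level beside the surfactant genes. Sums of 7 ciliated cell markers, at 80.1 to 222 FPKM and 58.5 to 109 FPKM, overlapped. Of the 6 tested, 5 had an unadjusted limma p under 0.05 with lower values in TMAO lungs, against 2.93% of all tested genes. No marker of these 4 lists was at 0 in all lungs, and their part in the results was not tested. Libraries that stood apart from the rest were 2 in number. LPS-ALI replicate 4 had a summed alveolar type 2 marker level of 1295 FPKM against 4929 to 14804 in the other 8 libraries, and the lowest fibroblast sum, 224 FPKM. TMAO replicate 5 had 8846 genes with at least 1 FPKM against 11158 to 12239 elsewhere, and the lowest relative depth, 0.38 of that of LPS-ALI replicate 3. The mitochondrial share was lowest in LPS-ALI replicate 4, at 33.4%, and highest in TMAO replicate 5, at 52.2%. It was 35.9% to 49.3% in the other lungs. Group differences and correlations that changed most on leaving out these 2 libraries are given with and without them. LPS-ALI replicates 3 and 4 also carry library codes that begin with X, while the other 7 begin with B. What the code means is not stated in the sources used here, and X occurs in the LPS-ALI group only.

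Rasd1, which encodes a Ras-like GTPase that modulates G protein signalling, lies on chromosome 11 from 59963181 to 59964944 on the minus strand (GRCm38) and has 1 annotated transcript with 1611 exonic bases. Its level was 4.70, 3.07, 3.48 and 13.28 FPKM in LPS-ALI replicates 1 to 4. In TMAO replicates 1 to 5 it was 0.07, 0.32, 0.66, 0.61 and 0.52 FPKM. All TMAO lungs lay below all LPS-ALI lungs, and LPS-ALI replicate 4 stood far above the other LPS-ALI lungs. The mean was 6.13 ± 4.82 FPKM (SD, n = 4) in LPS-ALI and 0.436 ± 0.242 FPKM (SD, n = 5) in TMAO lungs. The ratio of the medians, 4.09 and 0.52 FPKM, was 7.87-fold, and the ratio of the means was 14.1-fold. On the log2(FPKM + 1) scale, which understates the change of low genes, the difference of TMAO minus LPS-ALI was -2.13 (SE 0.37), or -1.96 relative to the median gene. That median gene itself was shifted by -0.17. With LPS-ALI replicate 4 left out, the difference of the group means was -1.73. With TMAO replicate 5 left out instead, it was -2.15. Rasd1 reached 1 FPKM only in the 4 LPS-ALI lungs, so it was kept by the low-value filter solely through the group in which it was high. In bulk tissue, fewer cells of a type and less RNA per cell cannot be told apart.

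Across 11817 genes with at least 1 FPKM in at least 4 libraries, limma called 0 genes at an adjusted p of 0.05, a share of 0%. An unadjusted p under 0.05 was reached by 2.93% of the tested genes with lower and 0.423% with higher levels in TMAO lungs. Groups that did not overlap occurred in 1.36% of them with all TMAO lungs below and in 0.118% with all TMAO lungs above. Among the 8 genes, Rasd1 alone had groups that did not overlap, which is the pattern it was picked for. None of the other 7 reached an unadjusted p under 0.05 in this fit. Nr3c1 did with higher values in TMAO lungs under median-of-ratios scaling, under quantile normalization and without TMAO replicate 5 (limma unadjusted p = 0.022, 0.0195 and 0.0404). In those fits 3.09%, 3.73% and 4.3% of all genes did so in that direction. Zbtb16 did so with library weights (limma unadjusted p = 0.0104, 4.92% of all genes) and without LPS-ALI replicate 4 and TMAO replicate 5 (0.0296, 4.43%). Tsc22d3 did with lower values without TMAO replicate 4 (0.0475, 4.62% of all genes). No adjusted p of these 3 genes was under 0.05 in any of these fits.

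**Figure D1:**
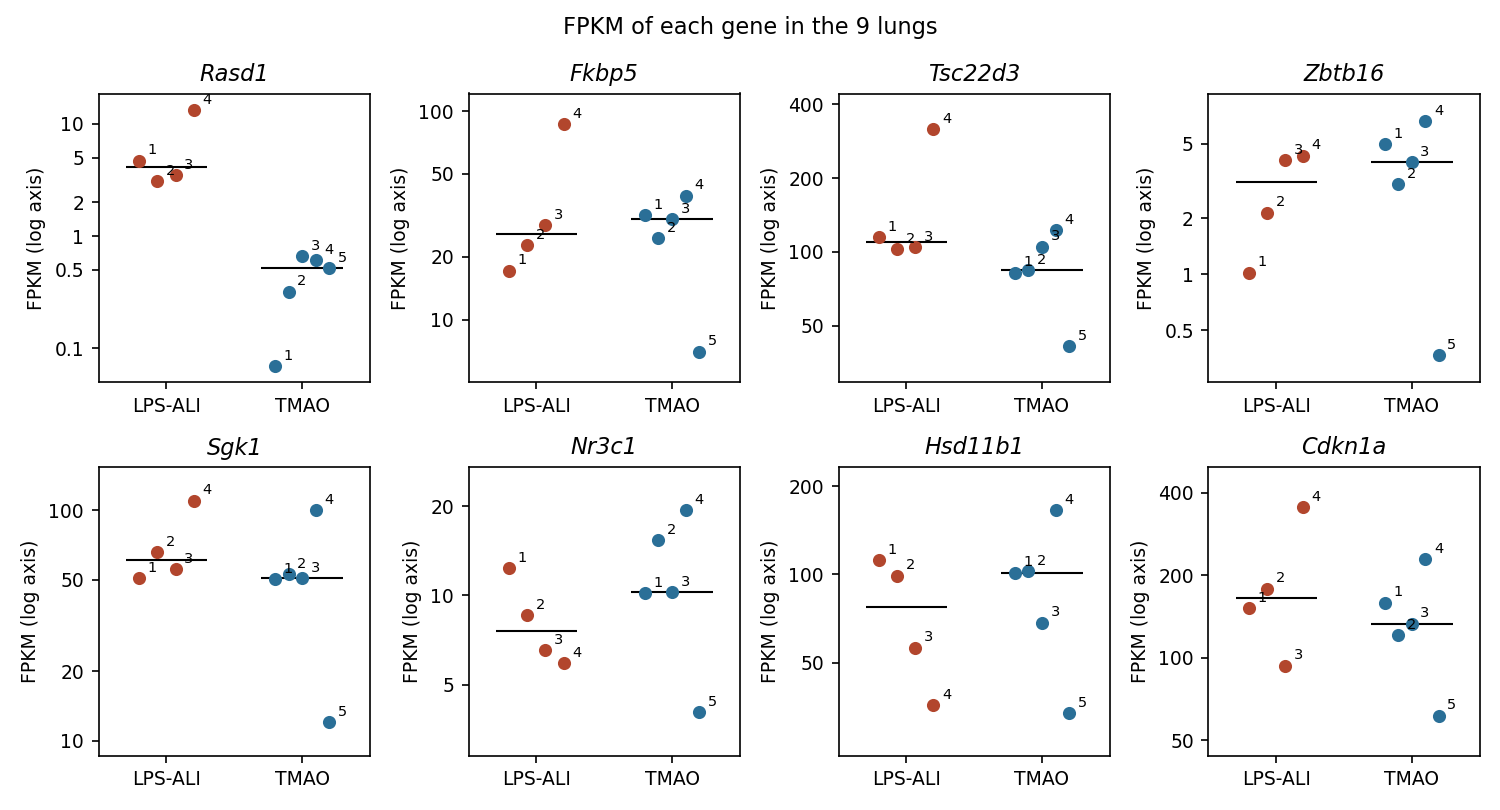
FPKM on log axes for each of the 8 genes, with 1 point per lung numbered by replicate and a line at the group median. The Rasd1 panel is the only one without overlap between groups, LPS-ALI replicate 4 is the highest lung for Rasd1, Fkbp5, Tsc22d3, Sgk1 and Cdkn1a, and TMAO replicate 5 is the lowest lung for every gene but Rasd1.

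Among the direct readouts of the receptor, Fkbp5 encodes a co-chaperone that binds the receptor complex and lowers its affinity for hormone. It lies on chromosome 17 from 28399094 to 28517527 on the minus strand. Fkbp5 was at 17.17, 22.78, 28.44 and 86.86 FPKM in LPS-ALI replicates 1 to 4 and at 31.83, 24.68, 30.32, 39.37 and 7.01 FPKM in TMAO replicates 1 to 5. The groups overlapped widely, with the highest lung in LPS-ALI and the lowest in TMAO. Its log2 difference was -0.42 (SE 0.52), which the spread between mice exceeded (limma adjusted p = 0.998, raw exact permutation p = 0.548). Without LPS-ALI replicate 4 the difference was 0.06, and without that lung and TMAO replicate 5 it was 0.46, so its direction rests on these libraries.

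Tsc22d3, also called Gilz, encodes a leucine zipper protein that restrains NF-kappaB and AP-1, and lies on chromosome X from 140539528 to 140600659 on the minus strand. Its level was 115.33, 102.99, 104.97 and 316.42 FPKM in LPS-ALI replicates 1 to 4. In TMAO replicates 1 to 5 it was 82.35, 84.20, 105.10, 123.15 and 41.23 FPKM. LPS-ALI replicate 4 stood apart, while 2 TMAO lungs lay within the range of the other 3 LPS-ALI lungs or above it. The log2 difference was -0.77 (SE 0.41), with a limma adjusted p of 0.998 and a raw exact permutation p of 0.111. Without LPS-ALI replicate 4 and TMAO replicate 5 it was -0.14.

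Zbtb16, which encodes the zinc finger transcription factor PLZF, lies on chromosome 9 from 48654297 to 48836222 on the minus strand. It was at 1.02, 2.14, 4.09 and 4.32 FPKM in LPS-ALI replicates 1 to 4 and at 4.96, 3.05, 4.00, 6.63 and 0.37 FPKM in TMAO replicates 1 to 5. TMAO replicate 5 was the lowest of the 9 lungs and TMAO replicate 4 the highest, so the TMAO group spanned the whole LPS-ALI range. The log2 difference was 0.20 (SE 0.48), within the spread between mice (limma adjusted p = 0.998, raw exact permutation p = 0.722). It was 0.79 without LPS-ALI replicate 4 and TMAO replicate 5.

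Sgk1 encodes a kinase that raises sodium uptake through the epithelial sodium channel, and lies on chromosome 10 from 21882184 to 21999903 on the plus strand. Its promoter window is shown because it was the only window among those found for these genes that held the receptor's palindromic element. The sequence, from RefSeq on GRCm38.p6, covers the 250 bases before 1 of the annotated starts at chr10:21993640-21993889 on the plus strand, with the match in capitals. The element searched is AGAACA, then 3 bases of any kind, then TGTTCT.
Sgk1: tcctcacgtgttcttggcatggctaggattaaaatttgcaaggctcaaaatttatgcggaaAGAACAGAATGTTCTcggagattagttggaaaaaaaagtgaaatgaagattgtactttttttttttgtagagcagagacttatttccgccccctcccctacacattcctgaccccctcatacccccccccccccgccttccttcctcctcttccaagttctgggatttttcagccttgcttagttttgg
The first base of the match lay at position -189 from the start. This motif reads the same on both strands and occurred in 3 of 32851 windows of 250 bases, or 0.00913%. The looser form, GNACA and TGTNC with 3 bases between them, overlaps it and occurred in 127 windows, or 0.387%. RefSeq windows were found for 5 of the 8 genes, 13 in all. A match describes letters in the window and is no measure of receptor binding, which these data do not hold.

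The Sgk1 level was 50.75, 66.07, 55.75 and 110.13 FPKM in LPS-ALI replicates 1 to 4 and 50.35, 52.82, 50.80, 99.90 and 12.05 FPKM in TMAO replicates 1 to 5. A single lung was high in each group, and TMAO replicate 5 was the lowest of all. The log2 difference was -0.60 (SE 0.49), with a limma adjusted p of 0.998 and a raw exact permutation p of 0.302. It was 0.08 without LPS-ALI replicate 4 and TMAO replicate 5.

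Nr3c1, the gene of the glucocorticoid receptor itself, was at 12.34, 8.57, 6.53 and 5.91 FPKM in LPS-ALI replicates 1 to 4. In TMAO replicates 1 to 5 it was at 10.19, 15.39, 10.27, 19.34 and 4.03 FPKM. The lungs of both groups interleaved, with LPS-ALI replicate 4 low, unlike its place for Rasd1, Fkbp5 and Tsc22d3. The log2 difference was 0.36 (SE 0.42), with a limma adjusted p of 0.998 and a raw exact permutation p of 0.421.

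Hsd11b1 encodes the enzyme that regenerates active corticosterone from its inert keto form inside cells, and lies on chromosome 1 from 193221634 to 193264075 on the minus strand. Its level was 111.67, 98.94, 56.22 and 35.72 FPKM in LPS-ALI replicates 1 to 4 and 101.37, 102.47, 68.50, 166.04 and 33.69 FPKM in TMAO replicates 1 to 5. Its lowest lungs were LPS-ALI replicate 4 and TMAO replicate 5, close to each other, and the groups overlapped. The log2 difference was 0.27 (SE 0.46), within the spread between mice (limma adjusted p = 0.998, raw exact permutation p = 0.635), and it was -0.03 without LPS-ALI replicate 4.

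Cdkn1a encodes the cell cycle inhibitor p21, which both p53 and glucocorticoids can induce, and lies on chromosome 17 from 29090976 to 29100727 on the plus strand. The RefSeq window shown, at chr17:29090729-29090978 on the plus strand (GRCm38.p6), lies before 1 of the annotated starts. It was chosen because it held the core of a p53 element, in capitals. The window before another start, at chr17:29093519-29093768, held 0 matches. The core searched is CATG, then 6 bases of any kind, then CATG.
Cdkn1a: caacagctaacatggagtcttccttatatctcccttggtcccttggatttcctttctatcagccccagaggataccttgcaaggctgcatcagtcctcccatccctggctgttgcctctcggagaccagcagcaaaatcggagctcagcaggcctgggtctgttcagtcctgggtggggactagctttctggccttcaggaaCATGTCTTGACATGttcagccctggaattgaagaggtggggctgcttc
The first base of the match lay at position -48 from the start that follows the shown window. This motif also reads the same on both strands, and it occurred in 161 windows, or 0.49%.

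The Cdkn1a level was 151.62, 179.23, 93.67 and 355.48 FPKM in LPS-ALI replicates 1 to 4 and 159.22, 121.22, 133.40, 228.94 and 61.57 FPKM in TMAO replicates 1 to 5. The highest lung was in LPS-ALI and the lowest in TMAO, with the others mixed. The log2 difference was -0.42 (SE 0.42), with a limma adjusted p of 0.998 and a raw exact permutation p of 0.429. It was 0.19 without LPS-ALI replicate 4 and TMAO replicate 5.

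**Figure D2:**
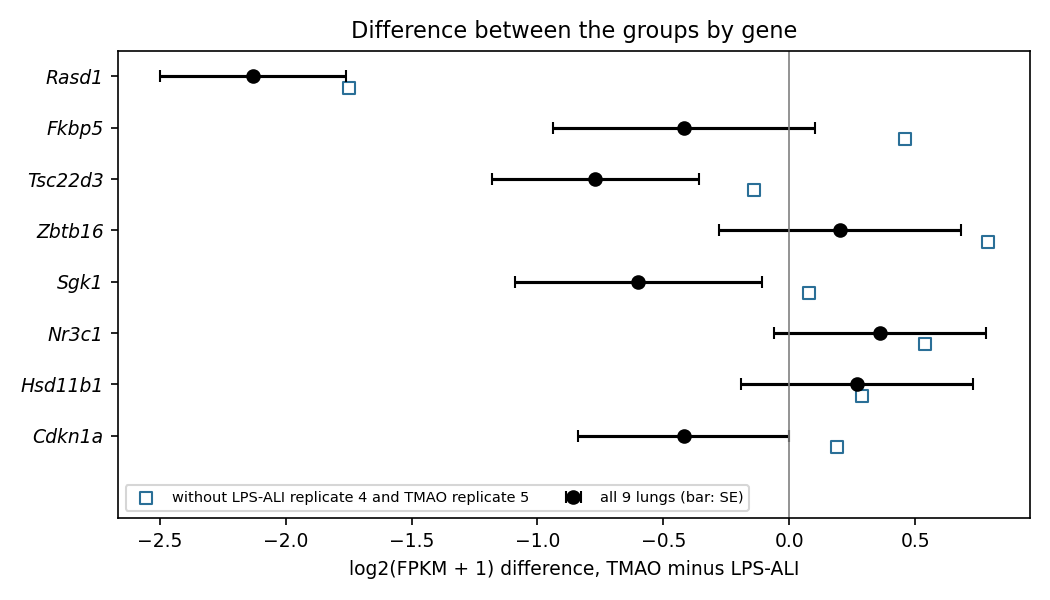
Difference between TMAO and LPS-ALI lungs on the log2(FPKM + 1) scale for each gene, with circles for all 9 lungs, bars for the standard error and squares for the value without LPS-ALI replicate 4 and TMAO replicate 5. Rasd1 lies at -2.13 and at -1.75 without those lungs, while Fkbp5, Sgk1 and Cdkn1a move from below 0 to above it.

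By mean FPKM over the 9 lungs Cdkn1a came first, followed by Tsc22d3 at 120, Hsd11b1 at 86.1, Sgk1 at 61, Fkbp5 at 32.1, Nr3c1 at 10.3, Zbtb16 at 3.4 and Rasd1 at 2.97. Neighbours were ordered the same way in 9 of 9 lungs for Sgk1 over Fkbp5, Fkbp5 over Nr3c1, and Nr3c1 over Zbtb16. Cdkn1a exceeded Tsc22d3 in 8 lungs, by 0.49 ± 0.36 log2 units (SD, n = 9). Tsc22d3 exceeded Hsd11b1 in 6 lungs, Hsd11b1 exceeded Sgk1 in 8, and Zbtb16 exceeded Rasd1 in 5, and in these 3 pairs the mean difference was smaller than its SD.

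Whether Rasd1 moved with the other genes was asked within groups, after subtracting each group's mean log2 value, because its groups did not overlap and a pooled correlation would mainly restate the group difference. The highest of the 7 group-centred correlations was that of Tsc22d3, with Pearson r = 0.73 over 9 lungs (exact within-group permutation p = 0.0778, adjusted over 7 relations p = 0.359) and Spearman rho = 0.72 (permutation p = 0.0608, adjusted p = 0.391). Cdkn1a had r = 0.54 (permutation p = 0.228) and rho = 0.35 (permutation p = 0.405). For Fkbp5 r was 0.53 (permutation p = 0.185) and rho 0.52 (permutation p = 0.168). Both had an adjusted permutation p of 0.359 for r. These positive values had LPS-ALI replicate 4 in common, which lay 1.20 log2 units above its group mean for Rasd1, 1.16 above for Tsc22d3 and 1.43 above for Fkbp5.

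The other 4 genes had a lower Pearson r with Rasd1, although the rho of Sgk1 was close to that of Fkbp5. Sgk1 had r = 0.29 (permutation p = 0.257) and rho = 0.53 (permutation p = 0.125), and Zbtb16 had r = 0.15 (permutation p = 0.69) and rho = 0.33 (permutation p = 0.387). For the receptor gene Nr3c1 r was -0.18 (permutation p = 0.583) and rho -0.12 (permutation p = 0.782). For Hsd11b1 r was -0.47 (permutation p = 0.206) and rho -0.27 (permutation p = 0.536). None of the 7 relations passed 0.05 before or after adjustment, where the adjusted p lay between 0.359 and 0.69 for r and between 0.391 and 0.782 for rho.

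Leaving out LPS-ALI replicates 2 and 4, the lungs farthest from the median of Rasd1, took r to 0.15 for Tsc22d3, 0.07 for Cdkn1a, -0.23 for Fkbp5, -0.04 for Sgk1, -0.31 for Zbtb16, 0.14 for Nr3c1 and 0.01 for Hsd11b1. Without LPS-ALI replicate 4 alone r was 0.17, -0.06 and -0.21 for Tsc22d3, Cdkn1a and Fkbp5, and without LPS-ALI replicate 2 alone it was 0.70, 0.62 and 0.50. With all other lungs kept, these 3 relations therefore rest on LPS-ALI replicate 4. TMAO replicate 5 had the reverse influence on Tsc22d3, which was lowest there while Rasd1 was not. The ratio of that lung to the median of the other TMAO lungs was 1.12 for Rasd1, 0.436 for Tsc22d3, 0.226 for Fkbp5 and 0.0826 for Zbtb16. Without it, Tsc22d3 had r = 0.97 with Rasd1 (exact permutation p = 0.00694, not adjusted). Without both that lung and LPS-ALI replicate 4, r was 0.82 for Tsc22d3 (exact permutation p = 0.0694, not adjusted), 0.12 for Cdkn1a and -0.13 for Fkbp5. The library code X also touches these values, since LPS-ALI replicate 4 carries it. Without the X-coded libraries r was 0.16 for Tsc22d3, -0.19 for Fkbp5 and -0.13 for Cdkn1a.

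**Figure D3:**
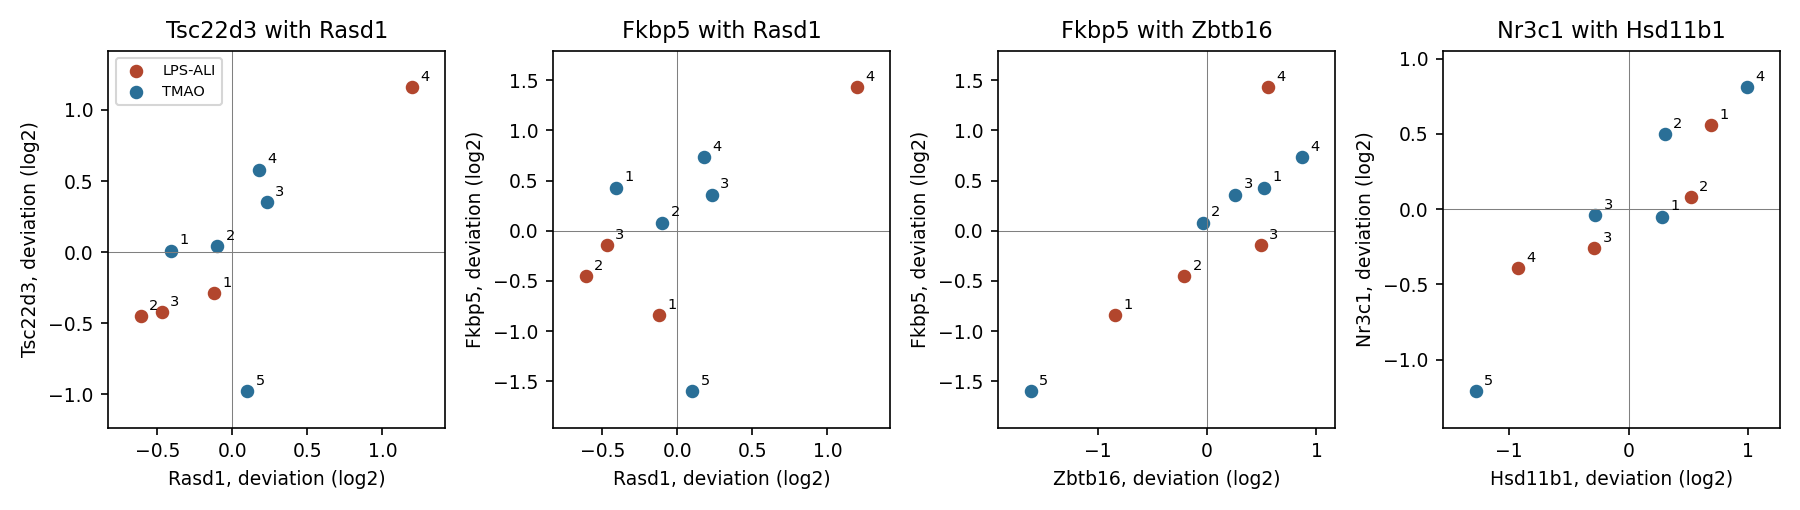
Deviation of each lung from its group mean on the log2(FPKM + 1) scale for 4 pairs of genes, with points numbered by replicate. LPS-ALI replicate 4 lies far to the upper right in both panels with Rasd1, TMAO replicate 5 lies low for Tsc22d3 and Fkbp5 but near 0 for Rasd1, and both right-hand panels show the lungs spread along a rising line.

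Correlations among the other 7 genes were mostly higher in these 9 lungs. All 21 group-centred correlations among them were above 0, from 0.09 to 0.94 with a median of 0.70, and 9 had an adjusted exact permutation p under 0.05. Without LPS-ALI replicate 4 and TMAO replicate 5, 16 of 21 were above 0 and the median was 0.51. Fkbp5 with Cdkn1a, 1 of those 9 pairs, went from r = 0.85 to 0.13. The median of the 7 correlations with Rasd1 over all 9 lungs was 0.29. No test of the difference between these medians was made. Fkbp5 and Tsc22d3 had r = 0.94 (adjusted exact permutation p = 0.0346) and rho = 0.90, and r = 0.35 without LPS-ALI replicate 4 and TMAO replicate 5. Fkbp5 and Zbtb16 had r = 0.89 (adjusted exact permutation p = 0.00729), and 0.98 without those lungs. Nr3c1 and Hsd11b1 had r = 0.92 (adjusted exact permutation p = 0.00729), and 0.86 without them. Sgk1 and Cdkn1a had r = 0.87 (adjusted exact permutation p = 0.0328), and 0.69 without them.

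The median tested gene moved as well, and lay at 1.74 on the log2(FPKM + 1) scale in TMAO replicate 5 against 2.74 to 3.35 in the other lungs. Relative to the median gene of each lung, 11 of the 21 correlations were above 0, their median was 0.31, and 0 had an adjusted exact permutation p under 0.05 (10 had a p under 0.05 before this subtraction, unadjusted, and the smallest adjusted p after it was 0.0948). On that scale Nr3c1 and Hsd11b1 kept r = 0.87 with each other and were negatively related to all of the other 6 genes, with r = -0.79 and -0.85 for Tsc22d3 and -0.73 and -0.80 for Rasd1. Without LPS-ALI replicate 4 the sign turned in 4 of these pairs. Hsd11b1 then had r = 0.70 with Cdkn1a and 0.41 with Sgk1, and Nr3c1 had 0.15 and 0.21 with them. With Tsc22d3 the values remained negative, at -0.56 for Hsd11b1 and -0.67 for Nr3c1. Rasd1 kept r = 0.74 with Tsc22d3 (exact permutation p = 0.0573, adjusted p = 0.134), which was 0.35 without LPS-ALI replicate 4. The relation of Rasd1 with Hsd11b1 had an exact permutation p of 0.0149 and an adjusted p of 0.105, and without LPS-ALI replicate 4 its r was -0.57.

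**Figure D4:**
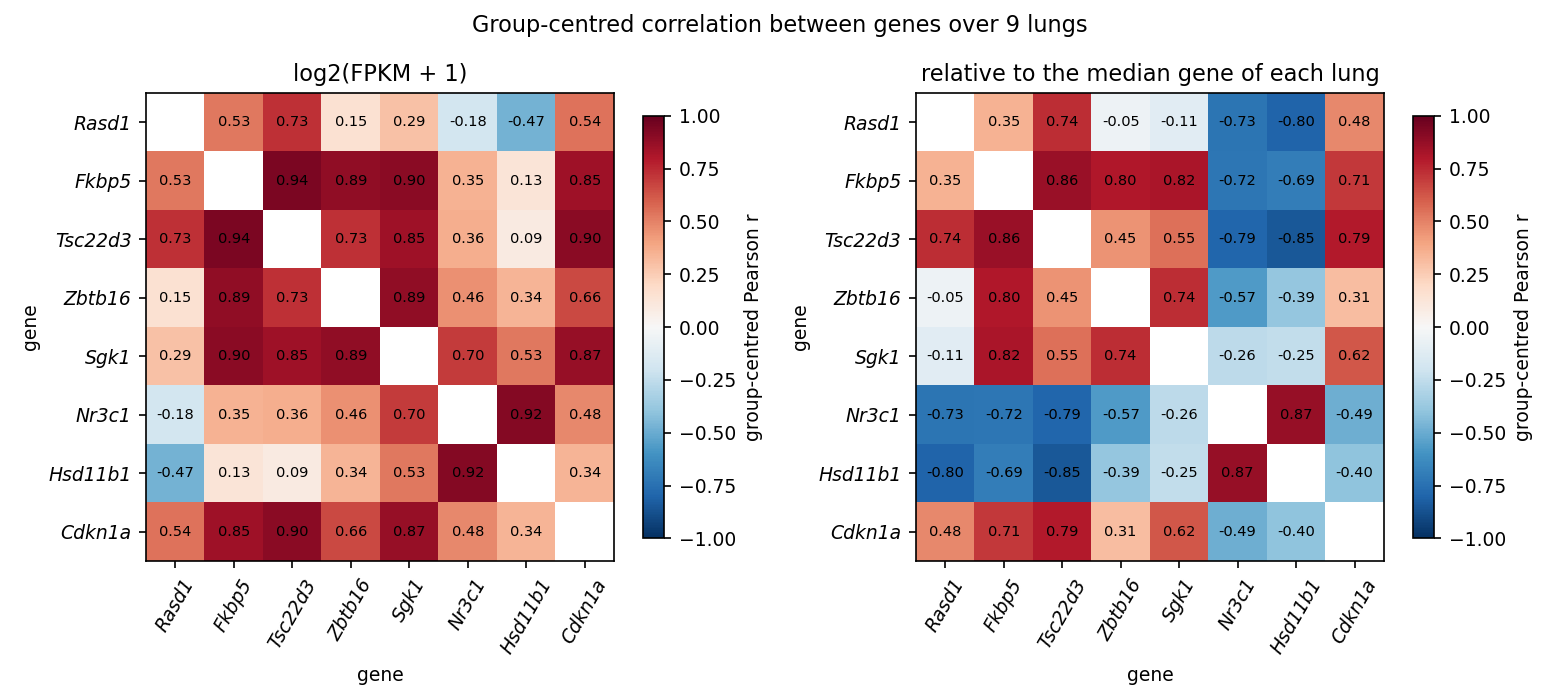
Group-centred Pearson r between the 8 genes over 9 lungs, coloured from -1 to 1, for log2(FPKM + 1) values on the left and for values relative to the median gene of each lung on the right. On the left the 7 genes other than Rasd1 are all positively related, and on the right Nr3c1 and Hsd11b1 form a pair with negative values against the others, of which those with Sgk1 and Cdkn1a turn positive without LPS-ALI replicate 4.

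Set among all 11816 other tested genes by group-centred r with Rasd1, Tsc22d3 ranked 559, Cdkn1a 1494, Fkbp5 1541, Sgk1 3677, Zbtb16 5208, Nr3c1 8851 and Hsd11b1 10847. The median over those genes was 0.09, with a 5th to 95th percentile range of -0.55 to 0.72, so Tsc22d3 lay just past the upper end of that range. The genes most like Rasd1 over all 9 lungs, predicted genes left out, were Wdr55 with r = 0.96, S100a11 with 0.95, Stmnd1 with 0.95, Slc10a6 with 0.94, Esrp2 with 0.94 and Wdr34 with 0.94. S100a11 encodes a calcium-binding protein, Slc10a6 a transporter of sulfated steroids and Esrp2 an epithelial splicing regulator. All 6 had every TMAO lung below every LPS-ALI lung and were highest in LPS-ALI replicate 4, a pattern that choosing them by a pooled correlation with Rasd1 favours and that is given as a description only. S100a11, for example, was at 1209.93, 1037.13, 1007.64 and 1854.10 FPKM in LPS-ALI and at 709.17, 865.06, 723.84, 884.06 and 799.22 FPKM in TMAO lungs.

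Within groups the most similar genes were Map2k3os with r = 0.98, Nqo1 with 0.97, A2ml1 with 0.96 and Hba-a2 with 0.96. Nqo1 encodes a quinone reductase of the oxidative stress response, and Hba-a2 an alpha globin. All 4 had overlapping groups and a peak in LPS-ALI replicate 4, the lung that lay farthest from its group mean for Rasd1, so it weighs on this choice. There Nqo1 reached 6.66 FPKM against 1.06 to 2.13 in the other lungs. Hba-a2 reached 657.60 FPKM there against 45.30 to 97.92. Map2k3os is an antisense gene, and the sources used here do not give the strand setting of the counting, so its reads cannot be told apart from those of Map2k3.

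Other genes that glucocorticoids are known to induce had mostly lower values in TMAO lungs. Of 26 tested genes on this list, 12 had an unadjusted p under 0.05 with lower and 1 with higher values in TMAO lungs (limma), against the 2.93% and 0.423% of all genes given above, and none had an adjusted p under 0.05. The median difference relative to the median gene was -0.62, with a range of -1.77 to 1.19, and 19 of 26 lay below that gene and 7 above. The list did not move as 1. Klf9 and Pdk4, named after their values were seen, lay at -0.14 and -0.12 relative to the median gene. Klf15 and Sesn1, named in the same way, lay at 0.06 and 0.68. The list was chosen with earlier results of these data known, so these counts are a description and no test of the list. Errfi1, a feedback inhibitor of the EGF receptor, was at 34.94, 23.13, 40.45 and 148.19 FPKM in LPS-ALI and 14.36, 16.23, 18.79, 20.13 and 5.61 FPKM in TMAO lungs, with no overlap. Ddit4, an inhibitor of mTORC1, was at 9.25, 9.39, 12.21 and 31.18 FPKM against 4.21, 3.75, 6.55, 8.70 and 0.36 FPKM. Nfil3, a transcription factor, was at 7.32, 7.68, 8.94 and 26.25 FPKM against 3.07, 3.74, 3.71, 7.22 and 1.51 FPKM. These 3 genes shared with Rasd1 both the missing overlap and the peak in LPS-ALI replicate 4. They were named for a small limma p, which favours missing overlap. No other of the 26 genes had all TMAO lungs below all LPS-ALI lungs, which 1.36% of all tested genes had.

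The metallothionein Mt1 reached 3694.09 FPKM in LPS-ALI replicate 4 against 133.92 to 839.26 in the other lungs, and its log2 difference was -1.87 (SE 0.58). Dusp1, a phosphatase that switches off MAP kinases, was at 109.95 FPKM in that lung, its lowest in the LPS-ALI group, and its log2 difference was -1.30 (SE 0.41). The gene with higher values was Fam107a, named after its values were seen, at 3.13 to 9.42 FPKM with LPS alone and 7.05 to 14.25 FPKM with TMAO, with a log2 difference of 1.02 (SE 0.37). Lcn2, a neutrophil and epithelial iron-binding protein and the most abundant gene of the list, had a mean of 2716 ± 1575 FPKM (SD, n = 4) in LPS-ALI and 1464 ± 517 FPKM (SD, n = 5) in TMAO lungs. The lower count, with LPS-ALI replicate 4 left out, was 8 of 26, against 1.83% of all genes in that fit, and the median -0.31. Without both X-coded libraries the count was 2 of 26, against 1.26% of all genes, and the median -0.32. The T and NK cell, B cell, platelet and ciliated marker values given above moved in the same direction as this list and the immediate early genes, and their part was not tested. The median within-group correlation of this list with Rasd1 was 0.34, above 0 for 21 of 26 genes. Over all other tested genes the median was 0.09, above 0 for 7010 of 11816. The list's value includes LPS-ALI replicate 4 and was not computed without that lung.

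Genes that carry or supply the hormone signal had differences spread around the median gene. Of 16 tested chaperones and cofactors of the receptor, 0 had an unadjusted limma p under 0.05 in either direction. Among all genes 2.93% did with lower and 0.423% with higher values, so this count does not set the list apart. Their median relative difference was -0.02, with a range of -0.41 to 0.34. Hspa8, the most abundant of them and a chaperone of the Hsp70 family, had a mean of 712 ± 244 FPKM (SD, n = 4) in LPS-ALI and 609 ± 228 FPKM (SD, n = 5) in TMAO lungs. Hsp90aa1, the inducible Hsp90 chaperone, had a mean of 116 ± 45.8 FPKM (SD, n = 4) in LPS-ALI and 99.8 ± 45.8 FPKM (SD, n = 5) in TMAO lungs. Of 8 genes of corticosteroid metabolism and the mineralocorticoid receptor, 2 passed the filter. H6pd, which supplies cofactor to the Hsd11b1 enzyme, had a log2 difference of 0.01 (SE 0.56), and Akr1c14, a hydroxysteroid dehydrogenase, 0.20 (SE 0.47). Below the filter, Hsd11b2, the enzyme that inactivates corticosterone, had at most 2.54 FPKM, in LPS-ALI replicate 4, and the mineralocorticoid receptor gene Nr3c2 at most 0.97 FPKM.

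Known relatives and partners of Rasd1 lay on both sides of the median gene. Of 9 such genes, 7 were tested. Their differences relative to that gene ran from -0.35 to 0.52, with a median of -0.03. In the main fit 0 had an unadjusted limma p under 0.05, against 2.93% of all genes with lower and 0.423% with higher values. With higher values 1 of 7 did under median-of-ratios scaling, under quantile normalization and without TMAO replicate 5. In those fits 3.09%, 3.73% and 4.3% of all genes did so. Gnai2, an inhibitory G protein subunit, was at 254.13 to 431.62 FPKM with LPS alone and at 88.27 to 539.82 FPKM with TMAO. Nos1ap, the adaptor that links Rasd1 to neuronal nitric oxide synthase, had a mean of 1.3 ± 0.78 FPKM (SD, n = 4) in LPS-ALI and 2.44 ± 2.43 FPKM (SD, n = 5) in TMAO lungs. Rasd2, the closest relative of Rasd1, reached at most 0.41 FPKM, and the synthase gene Nos1 at most 0.02 FPKM, so neither was tested.

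Other p53 targets, which stand beside Cdkn1a, and genes of sodium transport and Sgk1 signalling had mixed differences. Of 14 tested p53 targets, 1 had an unadjusted limma p under 0.05, with lower values in TMAO lungs, against 2.93% of all genes. This was the death receptor gene Tnfrsf10b, with a log2 difference of -0.74 (SE 0.34). Its level was 6.43 FPKM in LPS-ALI replicate 4, against 2.72, 2.30 and 1.49 FPKM in LPS-ALI replicates 1 to 3 and 0.78 to 2.21 FPKM in TMAO lungs. The median of these p53 targets relative to the median gene was -0.10. Bax, a mediator of apoptosis and the most abundant of them, had a log2 difference of -0.08 (SE 0.32). Of 9 genes of sodium transport and Sgk1 signalling, 1 had an unadjusted limma p under 0.05 with lower values, against the same 2.93% of all genes. This was the Sgk1 substrate gene Ndrg1, and the list median was -0.36. Ndrg1 was at 7.76, 8.51, 10.74 and 94.85 FPKM in LPS-ALI and at 4.69, 6.01, 7.93, 7.59 and 1.98 FPKM in TMAO lungs, so its difference leaned on LPS-ALI replicate 4. Scnn1g, a subunit of the epithelial sodium channel, had a log2 difference of -0.77 (SE 0.47). Atp1b1, a subunit of the sodium pump and the most abundant of them, had a log2 difference of -0.16 (SE 0.44).

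Immediate early genes, which respond within minutes to many stimuli and include AP-1 factors that the receptor restrains, also had mostly lower values in TMAO lungs. Of 17 tested, 9 had an unadjusted limma p under 0.05 with lower values, against 2.93% of all genes, 0 with higher values, against 0.423%, and none an adjusted p under 0.05. The median relative difference was -0.80, and it was -0.92 without LPS-ALI replicate 4. This list too was chosen with earlier results of these data known, so its counts are a description. Atf3, a stress-induced factor, was at 9.85, 8.84, 6.44 and 18.59 FPKM in LPS-ALI and at 2.29, 3.14, 3.45, 3.08 and 0.43 FPKM in TMAO lungs, with no overlap. Fos was at 45.31, 44.45, 54.76 and 86.94 FPKM against 15.08, 29.21, 12.95, 42.71 and 6.17 FPKM, again with no overlap. Of the 17 tested, 4 had all TMAO lungs below all LPS-ALI lungs, against 1.36% of all tested genes. Klf2, a transcription factor of endothelial and immune cells and the most abundant of the list, had a mean of 173 ± 36.5 FPKM (SD, n = 4) in LPS-ALI and 96.1 ± 57.6 FPKM (SD, n = 5) in TMAO lungs. Within groups the median correlation of these genes with Rasd1 was -0.11, above 0 for 7 of 17 genes. It was 0.34 for the glucocorticoid-induced list, and 0.09 for all other tested genes, above 0 for 7010 of 11816. Dusp1 and Zfp36 belong to both the immediate early and the glucocorticoid-induced list. No test of the difference between the lists was made.

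**Figure D5:**
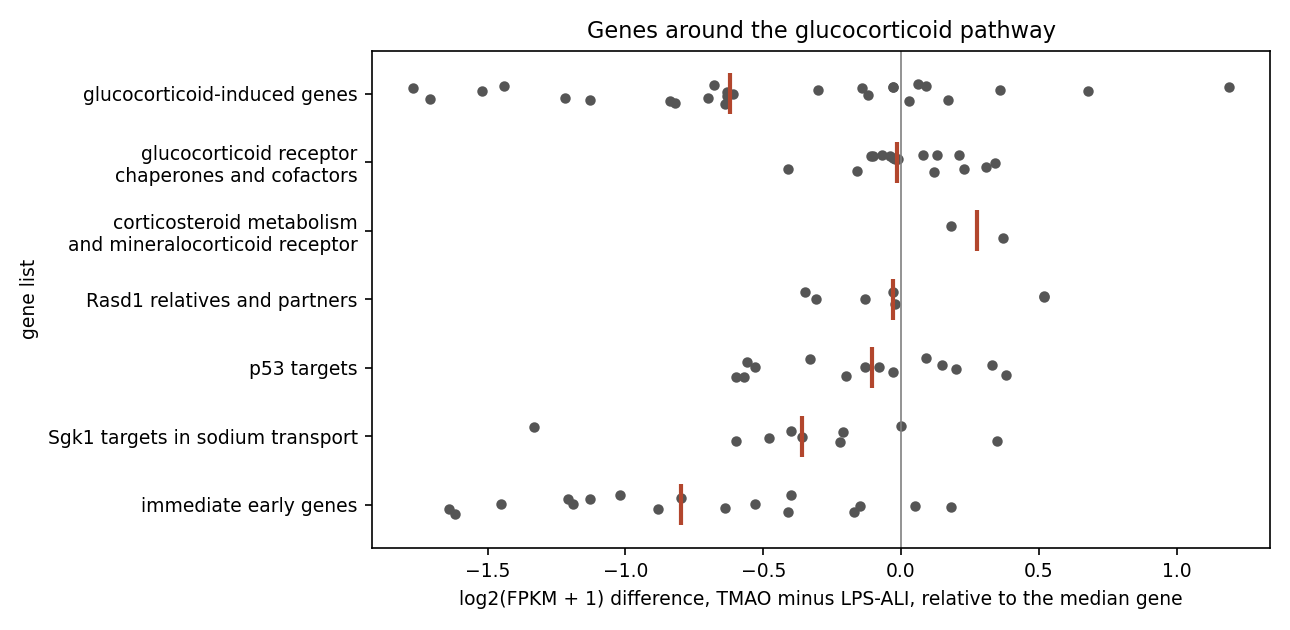
Difference between TMAO and LPS-ALI lungs on the log2(FPKM + 1) scale relative to the median gene, with 1 point per tested gene in 7 lists and a bar at each list's median. Glucocorticoid-induced and immediate early genes lie mostly below 0, with medians of -0.62 and -0.80. Receptor chaperones and Rasd1 partners lie on both sides of 0, with medians of -0.02 and -0.03.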

How the data were processed

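The deposited FPKM values were made by the authors, with 1 column per library and 2 decimals. The submitters' processing notes list fastp, HISAT2, SAMtools and featureCounts, without versions, and build mm10. Per the labels' protocols, total RNA was depleted of ribosomal RNA. Each library is a separate mouse per the labels' titles. Read totals are not given, so counting error is unknown. The members and gene lists were chosen with earlier results of these data known.

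Groups were compared on log2(FPKM + 1) with limma 3.58.1 (R 4.3.3), with trend, two-sided, with Benjamini-Hochberg adjustment over 11817 genes at 0.05. Raw exact permutation over 126 splits was two-sided, with a smallest possible p of 0.00794. Group-centred correlations used all 2880 orders within groups, two-sided. Scripts were tested on simulated data.

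The text names the 8 genes, the 6 most similar to Rasd1 over all libraries and 4 within groups, and, from each list, genes among the 6 with the smallest limma p and the most abundant gene. Exceptions are stated or lie below the filter. Symbols and coordinates come from GENCODE M21 (GRCm38), and promoter windows from RefSeq. Same-numbered mice did not deviate together. Alternatives covered pseudocount, filter, scaling, variance model, replicate block and left-out libraries.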

Additional observations from a re-analysis of the deposited data

Results flagged for a closer look

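LPS-ALI replicate 4 lay far above the other 3 LPS-ALI lungs by Dixon's criterion for 3 of the 8 genes. It had 13.28 FPKM of Rasd1, 86.86 FPKM of Fkbp5 and 316.42 FPKM of Tsc22d3, which were 3.82, 3.81 and 3.01 times the medians of the other LPS-ALI lungs. Of 16 groups examined 3 were marked in this way, and all 3 come from the same lung. The nominal rate of about 1 in 20 holds for independent groups with normally spread values. Here the criterion was applied to FPKM and not to log2 values, several of the genes vary together, and Rasd1 had been chosen by these values. The count is therefore a description, with no comparison to chance.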

How the results depend on the processing

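Over 23 alternatives the 7 genes other than Rasd1 gave 0 calls, and all genes gave 0 except 51 with library weights and 0 to 3 when single libraries were left out (1 without LPS-ALI replicate 3, 3 without TMAO replicate 4). The unadjusted split of 50 higher and 346 lower became 358 and 434 with median-of-ratios scaling, 441 and 450 with quantile normalization, and 504 and 345 without TMAO replicate 5. The mouse number as a replicate block gave 0 genes (374 higher and 372 lower unadjusted) and a Rasd1 difference of -2.15. It drops TMAO replicate 5, which has no partner, and it was not run for correlations. Rasd1 kept its direction in the 16 alternatives that tested it, from -3.45 with a pseudocount of 0.1 to -1.74. It fell below the filter without any LPS-ALI library and at a mean of 5, where Zbtb16 also dropped out. Log2 differences turned direction for Fkbp5 (0.30 with weights, 0.23 without X, 0.46 without LPS-ALI replicate 4 and TMAO replicate 5, single libraries out -0.70 to 0.06), Zbtb16 (single libraries out -0.08 to 0.61), Sgk1 (0.08 without both), Hsd11b1 (-0.04 with weights, -0.33 without X, single libraries out -0.03 to 0.59) and Cdkn1a (0.19 without both). Genes related to Rasd1 at an unadjusted permutation p under 0.05 numbered 1 with TPM (Tsc22d3), 2 with median-of-ratios (Tsc22d3 at r = 0.91 and Hsd11b1 at -0.82, permutation p = 0.0146 and 0.0448), 1 with quantile normalization (Hsd11b1 at -0.89, permutation p = 0.0139) and 0 to 1 with single libraries out (Tsc22d3 without TMAO replicate 5). Correlations with Rasd1 turned direction for Fkbp5 (-0.19 without X, -0.13 without both, single libraries out -0.21 to 0.82), Zbtb16 (-0.03 with a pseudocount of 0.1, -0.10 with median-of-ratios, -0.08 with quantile, -0.25 without X, -0.24 without both, single libraries out -0.28 to 0.36), Sgk1 (-0.16 with quantile, -0.08 without X, single libraries out -0.08 to 0.69), Nr3c1 (0.05 with TPM, 0.11 without X, 0.51 without both, single libraries out -0.30 to 0.14), Hsd11b1 (0.15 without both) and Cdkn1a (-0.13 without X, single libraries out -0.06 to 0.74). The cause was not tested. Low genes such as Rasd1 in TMAO lungs are limited by an unknown depth.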
